A study of Mus musculus with 32 samples.

Results

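Cell lines grown from mouse B cell lymphomas were compared with B cells of the same genotype that had received a signal through their antigen receptor. The 9 lymphoma lines (1001, 1004, 1007, 1010, 1013, 1016, 1019, 1036 and 1039) and the B cells both came from ATMKO.CD3epsilonKO mice, which lack the kinase ATM and the CD3 epsilon chain of the T cell receptor. The B cells were taken from spleen and treated in vitro with goat anti-mouse IgM at 15 ug/ml for 3, 6 or 24 h. Arrays were chosen by their titles: 11 arrays of the lines and 4 arrays of stimulated B cells, 15 of the 32 arrays in the series. Repeat 1 of line 1039 was left out. Technical repeats of lines 1001 and 1010 and of the 6 h sample were averaged, which left 9 lines on the lymphoma side and 3 samples, 1 for each time, on the stimulated side. The labels place the lymphomas in spleen, and they give neither an age nor the number of mice behind a B cell sample. For the 6 h arrays the titles and the treatment sentence read 6 hours, while a separate time field reads 3 hours. The titles were followed.

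Every array measured 1 sample, labelled red (Cy5), against a common RNA pool, labelled green (Cy3). The pool held RNA of splenic B cells with and without anti-IgM, of tumors and of germinal centre B cells, so RNA of both sides was in it. A level below is the log2 ratio of a sample to this pool, and a difference is the mean of the lines minus the mean of the stimulated samples, on the log2 scale. A positive difference means higher in the lymphoma lines. An established line and a primary culture also differ in how they are grown, and tumor origin and growth as a line cannot be told apart in this comparison. Nothing in the labels shows that the 3 stimulated samples came from separate mice. The p-values of this difference pool the spread among the lines with the spread among the 3 stimulated samples. Each of these samples was taken at a different time, so the spread on that side includes the differences between times. The p-values therefore cannot be read as covering variation between mice at a given time.

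Binding of antigen to the B cell receptor activates SYK, BTK and phospholipase C, and through them ERK, NF-kappaB and calcium signals. Immediate early genes such as Nr4a1 and Egr2 respond first, followed by genes of growth, ribosome production and metabolism, and DNA synthesis comes later. Anti-IgM therefore imitates part of an antigen response, and the study's design sets this response beside lymphomas that arose without ATM, a kinase that signals DNA double-strand breaks. BTK is also the target of the inhibitor used in another arm of the series.

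Of 21319 genes tested with limma, 8465 differed between the lines and the stimulated B cells at a Benjamini-Hochberg adjusted p under 0.05. The lines were higher for 3818 genes (17.9% of those tested) and lower for 4647 (21.8%), so that 39.7% of all genes were called. For 5932 genes (27.8%) every line lay on 1 side of all 3 stimulated samples. The median difference over all genes was 0.02. Any gene list described below has to be read against these shares. Cell division, DNA replication and sterol synthesis genes were mostly higher in the lines, while homing, interferon-induced and chemokine genes were mostly lower.

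Sample quality and markers bear on these differences. Between 49.9% and 55.5% of spots were well above background in the red channel of the lymphoma arrays, against 55.2% to 60.0% on the stimulated arrays and 21.9% on the array of line 1039 that was left out. Technical repeats correlated at 0.939 to 0.971 across probes, apart from line 1039 at 0.371. The 3 slides each held both sides, and with slide as a block 8265 genes were called. Arrays of lines and of stimulated cells had correlations of their ratios across genes down to -0.337. The labels state the dye of each channel and the pool contained RNA of both sides, so the direction was kept.

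The knocked-out genes were checked first. Atm had levels of -0.98, -0.75 and -0.58 at 3, 6 and 24 h and of -1.54 to -0.51 in the lines, with a median of -1.28. Its difference was -0.38 ± 0.22 (SE, 9 lines and 3 samples, limma adjusted p = 0.184), and a second probe gave 0.00. The Atm probe lies at chr9:53245871-53245930 (mm9), and anti-IgM-treated ATMWT B cells had a level of 0.63 on it. Both sides were thus below the wild-type cells on this probe. Cd3e did not differ either, at 0.27 ± 0.30 (SE, limma adjusted p = 0.52). Anti-IgM-treated ATMWT B cells had a level of -0.14 on its probe, against -0.26 in ATMKO cells at 6 h. Both are B cell samples, and CD3 epsilon belongs to the T cell receptor. These values therefore cannot show whether Cd3e was lost.

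B cell markers were found on both sides. Of 13 B cell markers, 5 were higher and 2 lower in the lines, with a median difference of 0.01. That median changed sign when line 1001, 1004 or 1013 or the 6 h sample was left out. The other 6 did not pass. Named here are the members with the largest differences among those that passed, all of them higher. Cd22, an inhibitory coreceptor, was higher by 2.76 ± 0.32 (SE, limma adjusted p = 2.83e-05), and Ms4a1, which encodes CD20, by 1.30 ± 0.31 (adjusted p = 0.00508). For Ms4a1 the lines overlapped the stimulated samples, and the difference from 24 h was 0.48. Pou2af1, a coactivator of octamer-dependent B cell transcription, was higher by 1.61 ± 0.27 (adjusted p = 0.000501).

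Markers of other blood and stromal cells were mostly lower in the lines. Across 8 such lists, 100 markers were tested, of which 6 were higher and 80 lower, and 73 of the 100 had no overlap between the sides. Another count describes their floor: 23 were not well above background on any of the 11 lymphoma arrays, among them the T cell gene Cd8a and the natural killer genes Klrd1 and Eomes. Neutrophil markers showed the pattern most plainly, with median levels of 1.15, 0.32 and 0.54 at 3, 6 and 24 h and of -3.92 to -2.91 in the lines. S100a8, a calcium-binding protein of neutrophils, had levels of 1.64, 0.70 and 0.54 in the stimulated cells and of -8.65 to -7.67 in the lines. Its difference of -9.04 ± 0.23 (SE, limma adjusted p = 1.17e-10) was the largest among genes whose sides did not overlap. Tcf7, a T cell transcription factor, was at least 30.2-fold lower in the lines, where none of the 11 arrays was well above background; the measured difference was -5.07 (limma adjusted p = 4.37e-09), and a second probe gave -1.54. The bound sets the mean of the stimulated samples against the lowest signal that counts as above background. Erythroid markers had median levels of 1.34, 0.22 and -1.39 at 3, 6 and 24 h, lower at the later times, and the lines ran from -3.36 to -2.45. Hba-a1, an alpha globin that shares sequence with its copy Hba-a2, differed by -4.09 ± 0.48 (SE, limma adjusted p = 3.19e-05). Gzma, a granule protease of natural killer and T cells, differed by -6.09 ± 0.38 (adjusted p = 1.58e-07), and Fn1, fibronectin of stroma and macrophages, was at least 26.5-fold lower, with a measured difference of -5.38 (adjusted p = 1.58e-06) and no lymphoma array well above background. Leaving out the 3 h sample reduced the erythroid markers called lower from 14 of 15 to 8. In bulk RNA, fewer cells of a type and less RNA per cell cannot be told apart. The part of other cells in the differences described below was not tested.

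**Figure D1:**
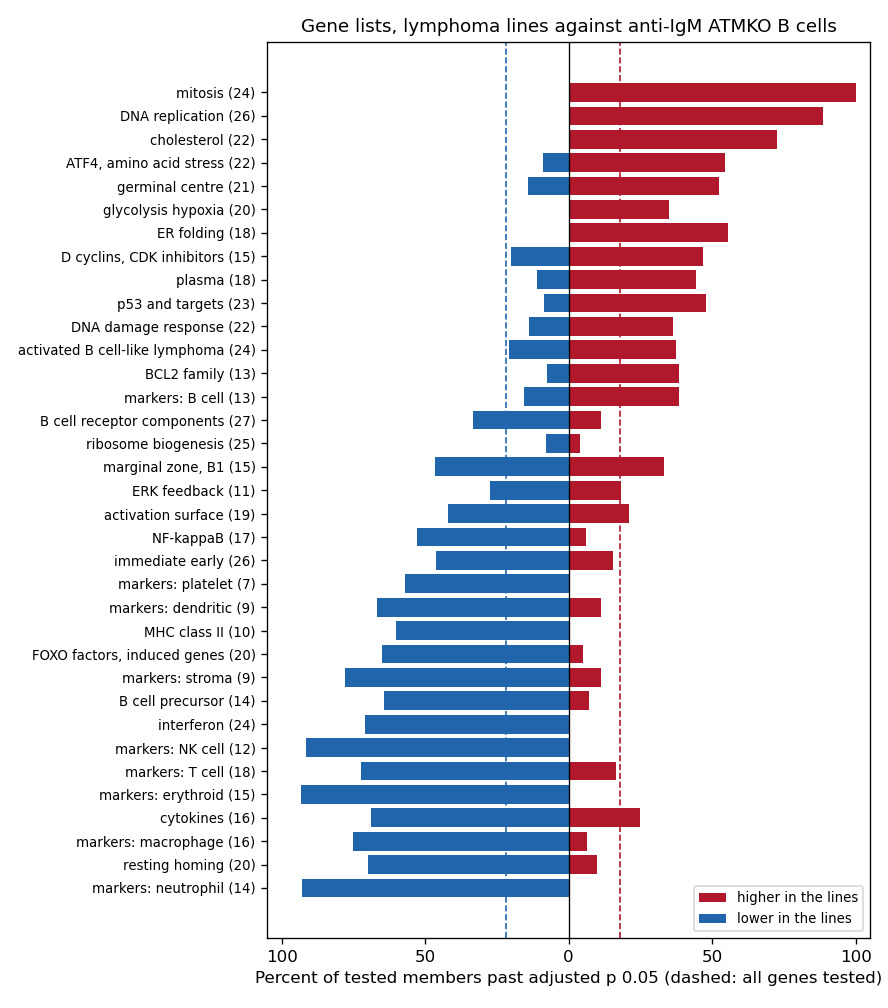
Percent of the tested members of each gene list (number in parentheses) that passed the limma test at an adjusted p of 0.05, higher (red, to the right) or lower (blue, to the left) in the 9 lymphoma lines than in the 3 anti-IgM-stimulated samples. Dashed lines mark the 17.9% and 21.8% of all genes tested; mitosis (24 of 24 higher) stands at the top and neutrophil markers (13 of 14 lower) at the bottom, in order of the lists' median difference.

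Genes of mitosis were higher in the lines without exception in the list. All 24 tested members passed the test, every line was above every stimulated sample for each of them, and the median difference was 2.55. Stretches upstream of the start of 2 members follow, because their letters are shared by most of the list. They come from the RefSeq promoters of GRCm38.p6, minus strand, and were chosen after the values were seen. CCAAT and TTTGAA (the core of the cell cycle homology region) stand in capitals. The Ccnb1 promoter held CCAAT but not TTTGAA, and that of Cdc20 held both.

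Ccnb1, chr13:100786534-100786600: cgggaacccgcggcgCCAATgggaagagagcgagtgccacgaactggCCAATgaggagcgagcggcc

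Cdc20, chr4:118437344-118437411: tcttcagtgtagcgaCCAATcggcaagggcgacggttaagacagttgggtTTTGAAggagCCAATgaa

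Of the 24 mitosis genes, 20 had a promoter of 300 bases in the table. On either strand, CCAAT occurred in 17 of these (85%), against 37.9% of all 27025 promoters, and TTTGAA in 14 (70%), against 18.1%. The E-box CACGTG, searched by the first plan, occurred in 1 (5%), against 7.24% of all. CCAAT was as frequent in the cholesterol list described below, in 13 of 15 promoters (86.7%), while TTTGAA occurred there in 1 (6.67%). These matches describe letters and not binding.

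Ccnb1 encodes cyclin B1, the partner of CDK1 at entry into mitosis. Its levels were -2.88, -2.84 and -2.67 at 3, 6 and 24 h, and ran from -0.15 over a median of 0.66 to 1.60 in the lines. The lowest line was still more than 2 log2 units above the highest stimulated sample, and the difference was 3.47 ± 0.28 (SE, limma adjusted p = 1.14e-06). Tpx2, a spindle assembly factor, differed by 3.00 ± 0.22 (adjusted p = 5.96e-07), and Ccna2, cyclin A2, by 2.94 ± 0.33 (adjusted p = 2.38e-05). Cdc20, the activator of the anaphase-promoting complex, had levels of -2.79, -2.42 and -2.50 in the stimulated cells and of -0.66 to 1.15 in the lines, a difference of 2.61 ± 0.32 (adjusted p = 4.59e-05). Against single times, 24, 24 and 23 mitosis genes were higher than at 3, 6 and 24 h. Untreated ATMKO B cells had a median level of -1.61 for the list, above the 3 stimulated medians of -2.25, -2.38 and -1.88. Line 1004 had the lowest list median at -0.48 and line 1039 the highest at 1.11.

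DNA replication genes followed, with 23 of 26 higher, none lower and a median difference of 1.62. Rrm2, the small subunit of ribonucleotide reductase, was higher by 2.62 ± 0.43 (SE, limma adjusted p = 0.000385), and Mcm10, an origin factor, by 2.16 ± 0.31 (adjusted p = 0.000135). The median difference was 1.75 against 3 h, 1.69 against 6 h and 1.32 against 24 h.

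Regulators of G1 were divided. Of 15 D cyclins, their kinases, CDK inhibitors and pocket proteins, 7 were higher, 3 lower and 5 did not pass. Cdkn2a, which encodes the inhibitor p16INK4A and the p53 activator ARF, had levels of -3.46, -3.19 and -3.13 in the stimulated cells. In the lines it ran from -0.30 over 2.07 to 2.58, and the difference was 4.75 ± 0.55 (SE, limma adjusted p = 2.99e-05), with 1.88 on a second probe. Its neighbour Cdkn2b, which encodes p15INK4B, differed by 3.28 ± 0.38 (adjusted p = 3.02e-05). Cdkn1a, the p21 inhibitor, was higher by 2.68 ± 0.33 (adjusted p = 4.79e-05). Ccnd2, the cyclin D2 of B cells, had levels of -2.05, -0.39 and -0.91 at 3, 6 and 24 h and of 0.65 to 1.71 in the lines, a difference of 2.22 ± 0.33 (adjusted p = 0.000193). No line overlapped a stimulated sample for any of these 4 genes.

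Trp53 and targets of p53, which ATM activates after DNA damage, were more often higher than lower in these ATM-null lines, with 11 of 23 higher and 2 lower and a median difference of 0.49. Zmat3, an RNA-binding p53 target, was higher by 3.36 ± 0.29 (SE, limma adjusted p = 2.25e-06). The death genes Pmaip1 (NOXA) and Bbc3 (PUMA) were higher by 2.86 ± 0.40 (adjusted p = 0.000115) and 2.28 ± 0.30 (adjusted p = 6.76e-05). Psrc1, which is also a spindle protein, was higher by 2.94 ± 0.26 (adjusted p = 2.56e-06). In the DNA damage response list 8 of 22 genes were higher and 3 lower, led by Fanca of the Fanconi anaemia core complex at 2.14 ± 0.30 (adjusted p = 0.000112). In the BCL2 family 5 of 13 were higher and 1 lower, or 4 lower without the 3 h sample. The lower member was Bcl2l11, the death gene BIM, at -2.42 ± 0.44 (adjusted p = 0.000873), well above background on 8 of the 11 lymphoma arrays.

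Sterol synthesis separated the stimulation times. Of 22 cholesterol genes, 16 were higher in the lines and none lower, with a median difference of 1.40. The list's median level was -1.85 at 3 h, 0.38 at 6 h and -0.89 at 24 h, while untreated cells stood at -1.51 and the 9 lines at 0.25 to 0.76. The 6 h sample therefore lay within the range of the lines and the other times below it. Against 3 h 21 of 22 genes were higher, against 24 h 18, and against 6 h 5. The corresponding shares of all genes were 16.5%, 11.5% and 9.92%. With median centring of each array in place of loess, the median difference from 6 h turned from 0.35 to -0.01, with 1 gene higher and 1 lower. Within the slides that held a 6 h array, 2 and 0 genes were higher.

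Cyp51, the lanosterol demethylase, had levels of -2.53, 0.38 and -1.04 at 3, 6 and 24 h and of 0.31 over 0.82 to 1.24 in the lines. The 6 h sample lay inside the range of the lines and the other times below it. Cyp51 differed by 3.36 ± 0.28 from 3 h (SE, limma adjusted p = 1.22e-05), by 0.45 ± 0.28 from 6 h (adjusted p = 0.266) and by 1.87 ± 0.28 from 24 h (adjusted p = 0.000711). Insig1, which retains the sterol sensor SCAP in the ER and is itself a sterol-regulated gene, kept a difference at 6 h, where its level of 0.77 lay below the lines' 1.30 to 2.05 (0.84 ± 0.28, SE, adjusted p = 0.0497). Within the slides that held a 6 h array Insig1 did not pass, at 0.63 and 0.89 (limma adjusted p = 0.1 and 0.0991). Over all 3 times Insig1 was higher by 1.97 ± 0.32 (adjusted p = 0.000371).

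Hmgcs1 makes the precursor of mevalonate, and its promoter was the 1 of 15 found for this list that held TCACCCCAC, the core of a sterol response element (6.67%, against 0.522% of all promoters). The stretch is shown for that motif, which stands in capitals (GRCm38.p6, plus strand, RefSeq).

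Hmgcs1, chr13:119690199-119690237: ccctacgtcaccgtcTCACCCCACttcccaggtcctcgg

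The levels of Hmgcs1 were -2.18, 0.89 and -1.20 at 3, 6 and 24 h, and the lines ran from -0.17 over 0.29 to 0.63. The 6 h sample was above every line and the other times below every line. The difference was 2.44 ± 0.27 from 3 h (SE, limma adjusted p = 9.17e-05), 1.46 ± 0.27 from 24 h (adjusted p = 0.00307) and -0.62 ± 0.27 from 6 h (adjusted p = 0.124). The gene was chosen after its values were seen.

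Glycolysis and hypoxia-response genes changed sides with time. Their median level was -1.88 at 3 h, -0.83 at 6 h and 1.33 at 24 h, while untreated cells stood at -1.50 and the lines at 0.16 to 0.81. Against 3 h 14 of 20 genes were higher in the lines, against 6 h 10, and against 24 h none was higher and 6 were lower. The share of all genes lower than at 24 h was 17%. Over the 3 times together 7 were higher and none lower; that count was 2 without 3 h, 2 without 6 h and 16 without 24 h. Within the slide of the 24 h array, 2 genes were lower and 1 higher, and Tpi1 there had an adjusted p of 0.0545 (limma).

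Tpi1, a glycolytic isomerase, had levels of -3.64, -1.29 and 1.26 at 3, 6 and 24 h and of 0.23 over 0.57 to 0.82 in the lines. The lines were higher than 3 h by 4.22 ± 0.20 (SE, limma adjusted p = 2.5e-07) and lower than 24 h by 0.68 on the log2 scale, a difference of -0.68 ± 0.20 (adjusted p = 0.0263). Its difference over all times, 1.80 ± 0.67, passed at an adjusted p of 0.0478 and lost the call when any 1 line was left out. Bnip3, a mitophagy receptor induced by HIF1, had levels of -4.61, -2.54 and 0.84, and the lines ran from -0.14 over 0.95 to 1.98. The 24 h level lay inside the range of the lines, with a difference of 0.08 ± 0.56, against 5.53 ± 0.56 from 3 h. This depended on the probe. On another Bnip3 probe the lines averaged 0.77, against 1.64 at 24 h and -2.11 at 3 h. A further probe gave 1.04, against 1.11 and -3.50. Pfkl, the liver-type phosphofructokinase, was 1.51 higher than at 3 h (adjusted p = 0.00686) and differed by -1.30 from 24 h (adjusted p = 0.0183).

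The core letters of the hypoxia response element, ACGTG, occurred in 10 of 20 promoters of this list (50%), against 19.7% of all, a search added after the values were seen; it overlaps the E-box. The Bnip3 and Ddit4 stretches are shown since both genes change steeply with time (GRCm38.p6, minus strand, RefSeq, matches in capitals; in Bnip3 the letters match on both strands).

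Bnip3, chr7:138909594-138909629: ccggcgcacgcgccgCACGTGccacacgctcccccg

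Ddit4, chr10:59951938-59951972: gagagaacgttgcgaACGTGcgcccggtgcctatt

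**Figure D2:**
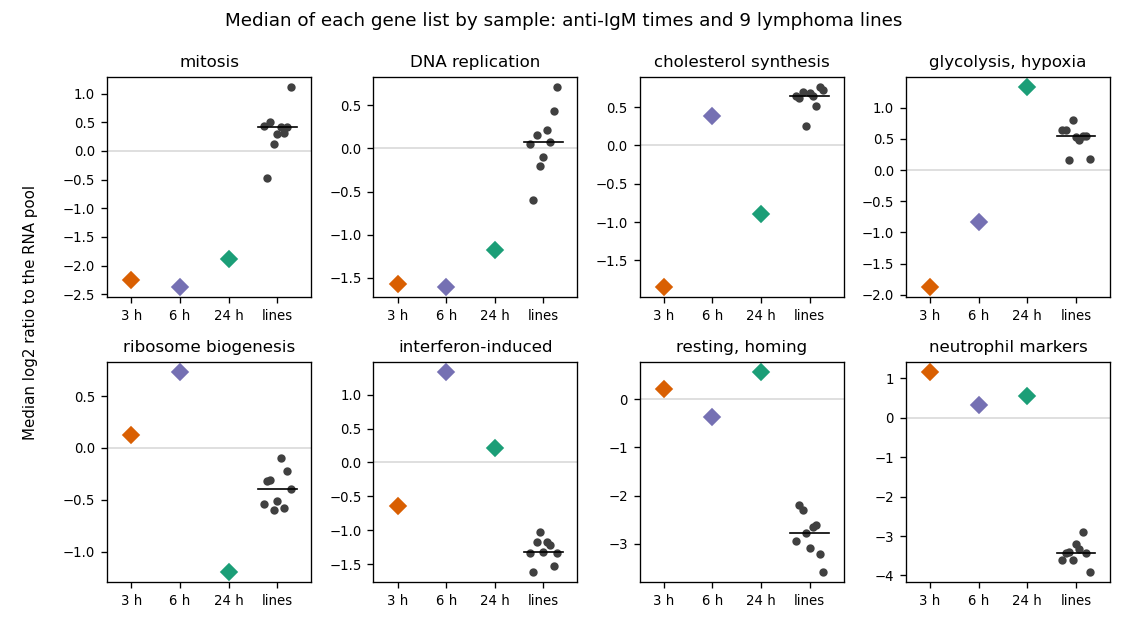
Median log2 ratio to the RNA pool over the tested members of 8 gene lists, in the 3 h, 6 h and 24 h anti-IgM samples (coloured diamonds) and in each of the 9 lymphoma lines (dark points, horizontal bar at their median); each panel has its own scale. Cholesterol genes of the lines (0.25 to 0.76) enclose the 6 h sample, and glycolysis and ribosome genes of the lines lie between 24 h and the earlier times.

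Ribosome biogenesis and MYC target genes ran opposite to glycolysis. Their median level was 0.12 at 3 h, 0.73 at 6 h and -1.20 at 24 h, and -0.60 to -0.10 in the lines, with untreated cells at -0.35. Of 25 genes, 10 were lower in the lines than at 3 h, 18 were lower than at 6 h and 12 were higher than at 24 h. None went the other way at any time, and with median centring 4 were lower than at 3 h. The shares of all genes lower than at 3 h and 6 h were 18.2% and 16.1%. Averaged over the times, only 1 was higher and 2 lower, with a median of -0.26, which became 0.19 without 6 h; without 24 h 16 were lower. Wdr43, a factor of small ribosomal subunit assembly, had levels of 1.1, 0.23 and -1.36, with the lines at -0.43 over -0.27 to 0.16. It differed by -1.34 from 3 h (limma adjusted p = 0.000396) and by 1.12 from 24 h (adjusted p = 0.00169). Myc, a driver of ribosome production, had levels of 0.48, 0.60 and -1.72 and of -1.85 over -1.37 to -1.03 in the lines. The 24 h sample lay within the range of the lines and the earlier samples above it. Myc differed by -1.85 ± 0.28 from 3 h (SE, limma adjusted p = 0.000621), -1.97 ± 0.28 from 6 h (adjusted p = 0.000691) and 0.35 ± 0.28 from 24 h (adjusted p = 0.391). Untreated B cells stood at 1.98. The mean Myc difference over the times, -1.16 ± 0.39 (adjusted p = 0.0312), lost its call without 3 h (adjusted p = 0.173) or without 6 h (0.184).

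Genes that respond first to the receptor were lower more often than higher. Of 26 immediate early genes, 12 were lower and 4 higher, with a median of -0.76 and with 7 lower when 3 h was left out. The list's median level was 1.25 in untreated B cells, 0.21, -0.10 and -0.32 at 3, 6 and 24 h, and -1.08 to -0.48 in the lines. It was thus highest in the cells that had received no anti-IgM. Nr4a1, an orphan nuclear receptor used as a reporter of receptor signalling, had levels of 2.03, -0.03 and -1.95, after 3.20 in untreated cells, and of -3.87 over -3.31 to -2.60 in the lines. Every line was below every time, and the difference was -3.28 ± 0.58 (SE, limma adjusted p = 0.000666). Egr2 differed by -2.68 ± 0.78 (adjusted p = 0.0158), or adjusted p = 0.0997 without 6 h. Egr1 spanned -0.94 over 0.05 to 1.93 in the lines around levels of 1.66, 0.26 and -0.31, and did not pass the test (-0.08 ± 0.68, SE, adjusted p = 0.934). The lines were more spread for Egr1 (SD 1.16, n = 9) than for Nr4a1 (SD 0.39, n = 9).

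Genes of ERK feedback were called about as often as all genes tested. Of 11 such genes (phosphatases, Sprouty and Spred inhibitors, and Ets factors under ERK), 2 were higher and 3 lower. The shares of all genes were 17.9% higher and 21.8% lower. Dusp4, an ERK phosphatase of the nucleus, had levels of 0.74, -1.06 and -2.93 and of 0.88 over 1.74 to 2.56 in the lines, a difference of 2.75 ± 0.56 (SE, limma adjusted p = 0.00183). Spry1, an inhibitor upstream of ERK, was lower by 3.06 on the log2 scale (-3.06 ± 0.55, adjusted p = 0.000756), with 3 of 11 lymphoma arrays well above background. NF-kappaB genes were lower in 9 of 17 cases and higher in 1. The inhibitor Nfkbia differed by -1.44 ± 0.25 (adjusted p = 0.000666), and Tnfaip3, which encodes the ubiquitin editor A20, by -1.65 ± 0.49 (adjusted p = 0.0169), with an adjusted p of 0.113 when 3 h was left out. Tnfaip3 stood at 1.87 at 3 h but at -0.76 and -0.17 later, within or near the lines' range of -1.90 to -0.34.

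Receptor signalling components and coreceptors did not move as a group. Of 27, 3 were higher, 9 lower and 15 did not pass, with a median of 0.01 that changed sign in several alternatives. Btk, the kinase behind the receptor, had levels of 0.48, -0.40 and 0.02 and of -1.81 over -1.44 to -1.26 in the lines. No line reached a stimulated sample, and the difference was -1.52 ± 0.17 (SE, limma adjusted p = 2.5e-05), with -1.06 on a second probe. Vav3, an exchange factor for small GTPases, differed by -3.60 ± 0.30 (adjusted p = 1.95e-06).

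Surface and secreted products differed strongly. Cytokine and chemokine genes were lower for 11 of 16 and higher for 4, with a median of -2.17. Ccl4, a chemokine that activated B cells release to draw T cells, had levels of 2.57, 1.22 and -0.89 and of -6.11 over -5.95 to -5.81 in the lines, where 1 of 11 arrays was well above background. Its difference was -6.93 ± 0.47 (SE, limma adjusted p = 3.19e-07). Ccl5, which T and natural killer cells also make, differed by -5.87 ± 0.23 (adjusted p = 3.58e-09). Il10 and Ebi3, which encode regulatory cytokine chains, went the other way. Il10 had levels of 0.13, -1.41 and -2.08 and of -0.02 over 1.43 to 3.08 in the lines, a difference of 2.65 ± 0.56 (adjusted p = 0.00244); the lowest line overlapped the 3 h sample. Ebi3 was higher by 2.59 ± 0.35 (adjusted p = 0.000106). Of 19 activation surface genes 8 were lower and 4 higher. Icosl, the ligand of ICOS on T cells, differed by -4.95 ± 0.19 (adjusted p = 2.33e-09), Cd200 by -4.25 ± 0.47 (adjusted p = 1.98e-05) and Cd70, the CD27 ligand, by 3.78 ± 0.36 (adjusted p = 5.63e-06). Cd44, an adhesion receptor of activated cells, was higher by 1.63 ± 0.29 (adjusted p = 0.00077), and its other probes gave 0.34 to 1.16.

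Genes of resting follicular B cells, homing and egress had the most negative median of the 26 B cell and pathway lists. Of 20 genes 14 were lower and 2 higher, with a median difference of -2.98. Median levels were 0.22, -0.36 and 0.56 at the 3 times and -3.59 to -2.20 in the lines. Ccr7, the receptor that guides lymphocytes to T cell zones, had levels of 2.33, 0.56 and 0.04 and of -7.06 over -6.76 to -4.57 in the lines. Its difference was -7.38 ± 0.52 (SE, limma adjusted p = 4.29e-07). Satb1, a chromatin organiser of lymphocytes, had levels of 2.08, 0.79 and 0.49 and of -5.31 over -4.72 to -4.59 in the lines, a difference of -5.94 ± 0.27 (adjusted p = 9.4e-09). For both genes the lines lay several log2 units below every stimulated sample. T cells express them too, but both sides came from mice without CD3 epsilon. The T cell content of the B cell samples was not tested. Cr2, the complement receptor of mature B cells, differed by -4.81 ± 0.43 (adjusted p = 2.99e-06), and S1pr1, the egress receptor, by -3.90 ± 0.74 (adjusted p = 0.00117). S1pr1 differed by -5.28 from 3 h, by -2.49 from 6 h, where it did not pass, and by -3.93 from 24 h. FOXO factors and FOXO-induced genes were lower for 13 of 20 and higher for 1, and Il7r among them differed by -4.28 ± 0.58 (adjusted p = 0.000103), with 5 of 11 lymphoma arrays above background. Neutrophil, T cell and natural killer markers were lower over the same samples, as given above.

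**Figure D3:**
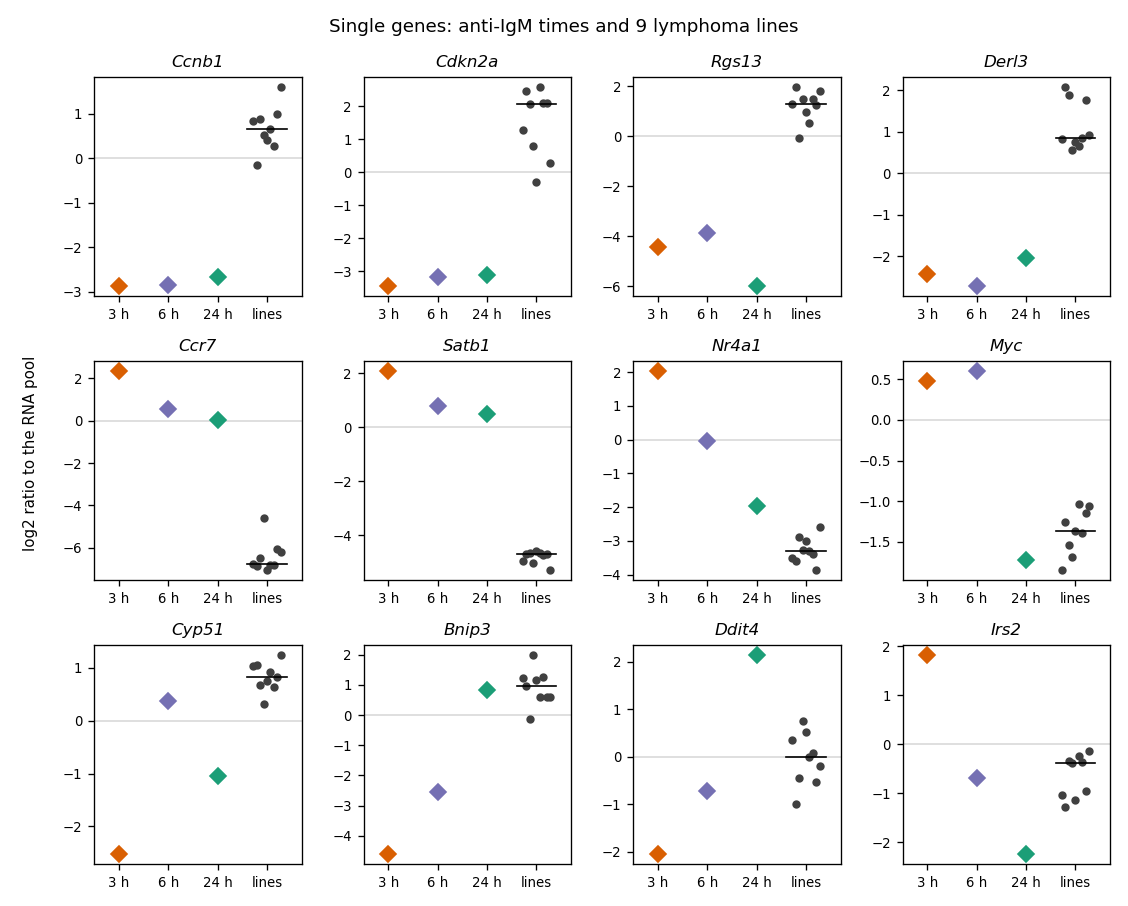
Log2 ratio to the RNA pool of 12 genes in the 3 h, 6 h and 24 h anti-IgM samples (coloured diamonds) and in each of the 9 lymphoma lines (dark points, horizontal bar at their median); each panel has its own scale. Ccnb1, Cdkn2a, Rgs13 and Derl3 lie above all stimulated samples in every line and Ccr7, Satb1 and Nr4a1 below, while Myc and Bnip3 of the lines overlap the 24 h sample, Cyp51 the 6 h sample, and Ddit4 and Irs2 of the lines lie between 3 h and 24 h.

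Interferon-induced genes were lower in the lines and again depended on time. Of 24, 17 were lower and none higher, with a median of -1.67. Median levels were -0.64, 1.33 and 0.21 at 3, 6 and 24 h and -1.62 to -1.02 in the lines, with untreated cells at 0.03. Against 6 h 20 genes were lower, against 24 h 18, and against 3 h 9 were lower and 1 higher. Rtp4, an interferon-induced Golgi chaperone, had levels of -0.60, 1.64 and 0.27 and of -5.29 over -4.89 to -4.32 in the lines, of whose arrays 4 of 11 were above background. Its difference was -5.26 ± 0.35 (SE, limma adjusted p = 2.54e-07). Oas1a, a sensor enzyme for double-stranded RNA, differed by -4.43 ± 0.46 (adjusted p = 1.08e-05). MHC class II genes, of which 6 of 10 were lower and none higher, had a median of -1.08, but 1 was called without 3 h. H2-Oa, which restrains peptide loading in B cells, differed by -2.20 ± 0.46 (adjusted p = 0.00235).

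Genes of more than 1 B cell stage were higher in the lines. Germinal centre genes were higher for 11 of 21 and lower for 3, with a median of 1.20. Rgs13, a regulator of chemokine receptor signals in germinal centre cells, had levels of -4.44, -3.85 and -6.00 and of -0.05 over 1.30 to 1.97 in the lines, a difference of 5.96 ± 0.46 (SE, limma adjusted p = 8.29e-07). No line overlapped a stimulated sample. Mef2b differed by 3.16 ± 0.23 (adjusted p = 4.58e-07) and Fut8, a fucosyltransferase in the activated B cell-like lymphoma list, by 3.06 ± 0.15 (adjusted p = 2.1e-08). Bcl6, the repressor that sets up the germinal centre state, ran from -0.31 over 0.37 to 2.57 in the lines, against -1.49, -1.69 and -1.54. It passed over all times (2.38 ± 0.54, adjusted p = 0.00388), while against single times the adjusted p was 0.0848, 0.0767 and 0.0893. In the activated B cell-like list as a whole 9 of 24 were higher and 5 lower. Irf4, shared by activation and plasma cell programmes, did not pass, at 0.37 ± 0.26 (adjusted p = 0.276).

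Secretory genes were higher in part. Of 18 ER folding genes 10 were higher and none lower, with a median of 0.90, and of 18 plasma cell genes 8 were higher and 2 lower. Derl3, of ER-associated degradation, had levels of -2.42, -2.72 and -2.03 and of 0.56 over 0.85 to 2.07 in the lines, a difference of 3.53 ± 0.34 (SE, limma adjusted p = 5.35e-06). Sec11c, a signal peptidase subunit, differed by 3.86 ± 0.43 (adjusted p = 2.14e-05) and Xbp1, the factor of the unfolded protein response and secretion, by 2.09 ± 0.35 (adjusted p = 0.000516). Sdc1, the plasma cell surface marker CD138, did the reverse, at -3.02 ± 0.59 (adjusted p = 0.00141). ATF4 and amino acid stress genes, which answer amino acid shortage and ER stress, were higher for 12 of 22 and lower for 2, with a median of 1.32. Against 6 h the count was 5 higher and 1 lower (2 and 1 with median centring) and the median 0.61, against 3 h 13 and 1 with 1.75, and against 24 h 16 and 2 with 1.94. Stc2, a secreted glycoprotein, differed by 4.11 ± 0.57 (adjusted p = 0.000112), Chac1, which degrades glutathione, by 3.45 ± 0.70 (adjusted p = 0.00192), and Trib3, a pseudokinase that dampens ATF4, by 3.44 ± 0.66 (adjusted p = 0.00123).

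Innate-like genes were divided and precursor genes mostly lower. Of 15 marginal zone and B1 genes 5 were higher and 7 lower, the latter led by Plac8 at -7.54 ± 0.45 (SE, limma adjusted p = 8.93e-08), followed by Cd5 at -4.47 ± 0.24 (adjusted p = 3.93e-08) and Cd1d1 at -3.90 ± 0.39 (adjusted p = 7.91e-06). Of 14 precursor genes 9 were lower and 1 higher, and Cd93, a receptor of immature B cells and also of myeloid and endothelial cells, differed by -5.26 ± 0.22 (adjusted p = 5.89e-09). Plac8 and Cd5 are also expressed by other leukocytes.

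Among genes with a symbol whose sides did not overlap, the 8 largest differences in favour of the lines were those of Rgs13, described above, and of 7 genes outside the lists. Plch2, a phospholipase C, had levels of -5.33, -5.12 and -4.83 and of -0.98 over 2.51 to 3.75 in the lines, a difference of 7.09 ± 0.76 (SE, limma adjusted p = 1.43e-05). A second Plch2 probe gave 3.59, with 0 of 4 stimulated arrays well above background. Serpinc1, which encodes antithrombin, a product of the liver, had levels of -4.38, -5.58 and -5.34 and of 0.01 over 1.5 to 1.90, a difference of 6.35 ± 0.37 (adjusted p = 7.99e-08). All 9 lines were above every stimulated sample for both genes, with a spread between lines of SD 1.40 for Plch2 and 0.60 for Serpinc1. Cd109, a surface protein that binds TGF-beta, differed by 5.72 ± 0.63 (adjusted p = 1.79e-05), Fabp4, a fatty acid carrier, by 5.71 ± 0.57 (adjusted p = 8.26e-06), and Chst1, a sulfotransferase, by 5.37 ± 1.07 (adjusted p = 0.00163). Chst1 was uneven among the lines (SD 1.96), from -2.74 in line 1013 and -2.40 in line 1010 to 3.16. Its difference from 3 h, 4.61, did not pass. Trim12a, of a family of antiviral TRIM proteins with near-identical copies, differed by 5.31 ± 0.25 (adjusted p = 1.49e-08; 4.24 on a second probe) and Klhl13, a ubiquitin ligase adaptor, by 5.29 ± 0.67 (adjusted p = 5.94e-05). Only 2 of 4 stimulated arrays for Cd109 and 1 of 4 for Klhl13 were well above background.

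Which stimulation time the lines came nearest to was asked of all 21319 genes at once. The distance of a line from a time was the root mean square (RMS) of their log2 differences. It averaged 1.265 ± 0.044 (SD, 9 lines) from 3 h, 1.139 ± 0.041 from 6 h and 1.195 ± 0.050 from 24 h. All 9 lines were nearest to 6 h, next to 24 h and farthest from 3 h. The 3 h distance exceeded the 6 h distance by 0.126 ± 0.010 (SD, n = 9) and the 24 h distance by 0.070 ± 0.015, and 6 h was below 24 h by 0.056 (a difference of -0.056 ± 0.021). Each held in 9 of 9 lines, with p = 0.00391 (two-sided exact permutation of the signs over lines, unchanged by adjustment over 3 pairs), the smallest p that 9 lines can give. The test covers the spread over lines only, since each time is 1 sample.

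**Figure D4:**
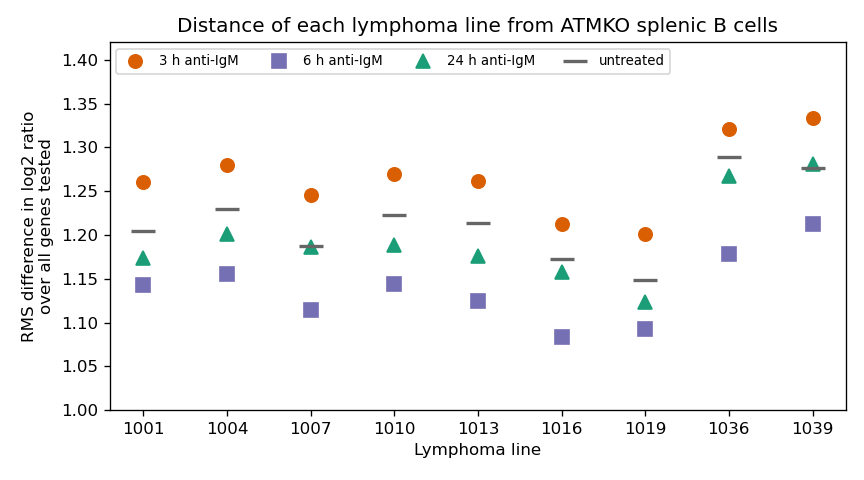
RMS log2 difference over 21319 genes (vertical axis, starting at 1) between each of the 9 lymphoma lines (horizontal axis) and the ATMKO B cells at 3 h, 6 h and 24 h of anti-IgM and without treatment. In every line the 6 h square is lowest (1.083 in line 1016 to 1.212 in line 1039) and the 3 h circle highest.

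These distances were large beside others in the series. Lines differed among themselves by 0.358 to 0.717, with a mean of 0.604, and the stimulated samples by 0.697 between 3 and 6 h, 0.626 between 6 and 24 h and 0.826 between 3 and 24 h. The lines were thus farther from every time than any of the times from each other. Untreated ATMKO B cells were at 1.216 ± 0.045 (SD, 9 lines), between 24 h and 3 h, and anti-IgM-treated ATMWT B cells at 6 h at 1.152 ± 0.041. The wild-type and ATMKO samples at 6 h were 0.190 apart.

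The order followed how far each sample itself departed from the pool. The RMS ratio to the pool was 0.772 at 3 h, 0.605 at 6 h and 0.652 at 24 h, and 0.593 in untreated cells. Untreated cells, averaged over 3 arrays, had the smallest departure and were farther from the lines than 6 h and 24 h. The 6 h sample averaged 2 arrays and the other times were single arrays, so these departures are not like for like. Each 6 h repeat alone departed by 0.609 and 0.620. The part of the departure from the pool in the order of the times was not tested. Each 6 h repeat alone also gave 6 h as nearest, by 0.058 and 0.045 below 24 h (differences of -0.058 and -0.045). By Pearson correlation across genes, which does not depend on the size of the departure, 6 h was nearest for 7 of 9 lines, 24 h for line 1001 and 3 h for line 1019, at correlations between -0.337 and -0.137. By that measure no pair of times passed, with adjusted p of 0.0703 for 3 h against 6 h, 0.43 for 3 h against 24 h and 0.082 for 6 h against 24 h (exact permutation). With median centring in place of loess, 6 h was no longer nearer than 24 h: the difference was 0.016, with 7 of 9 lines nearer to 24 h (exact permutation, adjusted p = 0.164). The 3 h sample stayed farthest under that centring in 9 of 9 lines. By the median absolute difference 6 h was again below 24 h (-0.022, exact permutation, adjusted p = 0.0703).

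The counts of calls were also lowest for 6 h. Against 3 h 7409 genes differed, against 24 h 6090 and against 6 h 5550, and 2772 were called in the same direction at all 3 times. These fits take the spread from the 9 lines and assume that the single sample of a time varies like them. The 3 comparisons share the lines, so their counts are not independent. The calls were split unevenly: against 6 h 38.1% of the called genes were higher in the lines, and 47.6% against 3 h. Median centring moved these to 17.6% and 63.2%, and it shifted the median of all genes by -0.271 and 0.186. The split between higher and lower at single times depends on the centring. So does the order of the counts, since median centring gave 6852 genes against 6 h and 5513 against 24 h.

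No single time was nearest for every programme. Of 26 B cell and pathway lists, all 9 lines were nearest to 6 h in 6 lists (resting and homing, FOXO, MHC class II, cholesterol, ATF4 and ER folding genes). They were nearest to 24 h in 4 (cytokines, mitosis, DNA replication and DNA damage response) and to 3 h in 3 (ERK feedback, germinal centre and interferon genes). In the other 13 the lines were divided, such as glycolysis, with 3 lines nearest to 6 h and 6 to 24 h. For cholesterol genes the RMS difference was 2.49 from 3 h, 0.546 from 6 h and 1.47 from 24 h.

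A set of 167 genes placed the lines between the early and the late sample, past the test against both 3 h and 24 h with opposite signs. Of these, 79 were lower than at 3 h and higher than at 24 h, and 88 the reverse. Irs2, an adaptor of insulin and interleukin-4 receptors, had levels of 1.82, -0.68 and -2.25 and of -1.29 over -0.39 to -0.13 in the lines. It differed by -2.47 ± 0.42 from 3 h (SE, limma adjusted p = 0.0013), by 0.03 ± 0.42 from 6 h (adjusted p = 0.97) and by 1.59 ± 0.42 from 24 h (adjusted p = 0.0184). Ddit4, the stress-induced inhibitor of mTORC1 whose upstream stretch is shown above, had levels of -2.06, -0.72 and 2.14 and of -0.99 over -0.01 to 0.75. It was 2.00 ± 0.52 higher than at 3 h (adjusted p = 0.0131) and differed by -2.19 ± 0.52 from 24 h (adjusted p = 0.0107) and by 0.66 ± 0.52 from 6 h (adjusted p = 0.401). Cyren, a regulator of DNA end joining, and Tmem35b behaved like Ddit4 in sign, with 1.46 and 1.32 from 3 h (adjusted p = 0.00385 and 0.0318) and -1.23 and -1.57 from 24 h (adjusted p = 0.0126 and 0.0177). Within the slide of the 24 h array the adjusted p was 0.0596 for Irs2, 0.0658 for Ddit4 and 0.0509 for Cyren (limma), with differences of 1.52, -2.26 and -1.23. For all 6 genes of this kind named here, the 6 h level lay between the 3 h and 24 h levels. The genes were chosen from these same values because the lines lay between those times. Their small differences from 6 h therefore say nothing more about the nearest time.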

How the data were processed

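RNA of 9 lymphoma lines and of 3 anti-IgM-stimulated B cell samples was measured against a common pool on 2-colour Agilent arrays. The files used hold the deposited mean and background intensity of each spot in red and green, and the scanner's processed intensity. Per the file headers they came from a later release of Agilent's Feature Extraction than the 9.1 that the submitters' processing notes name beside limma, with a design placed on mm9. The deposited value table holds the authors' log10 ratio of red over green, uncentred, which matched the scanner files' log10 ratio within 0.0005. The labels name the dyes. The number of arrays limits the precision.

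Intensity was corrected with normexp (offset 50) and loess-normalised within 24 arrays in limma 3.58.1 (R 4.3.3, statmod 1.5.0), giving log2 ratios computed from the deposited intensity. Control and outlier spots were left out, spots of a probe averaged, and a probe was kept where red or green stood well above background on a share of 0.5 or more of these 15 arrays. Of 55681 probes 27242 were named through RefSeq accessions and 2843 names were updated. The brightest probe stood for a gene, and 191 symbols with missing values were dropped. Group means were fitted with lmFit and eBayes (10 residual degrees of freedom, 8 for single times), with Benjamini-Hochberg adjustment over all 21319 genes. Promoters were read from RefSeq (GRCm38.p6), for which no coordinates were mixed with mm9.

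The comparison, lists and tests were chosen with earlier results of these data known. Named genes were Atm, Cd3e, the 8 largest non-overlapping differences each way, up to 3 leading members of each list, up to 4 genes each way with opposite signs at 3 h and 24 h, and 11 genes of B cell and lymphoma biology; not all are printed. Alternatives covered background, normalization, filter, probe choice, repeats, samples, slide and distance measure. Repeat numbers mark technical repeats and pair no line with a B cell sample. No column lacked a sample.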

Additional observations from a re-analysis of the deposited data

Results flagged for a closer look

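Of 93 sets of values over the 9 lines (gene levels and the 3 distances), 9 had 1 line far from the others by Dixon's criterion, where chance gives about 1 in 20 groups. Line 1007 stood apart for Oas1a (-2.61, nearest other line -3.79) and for the plasma cell marker Sdc1 (0.59, nearest -1.48); its Sdc1 level was near that of the stimulated samples. Line 1019 stood apart for Spry1 (-0.76, nearest -2.20) and for Hba-a1 (-5.37, nearest -4.13). Line 1010 had the highest Ccr7 level (-4.57, nearest -6.04) and line 1016 the highest Vav3 level (-1.62, nearest -2.55). Line 1036 had the highest Fn1 level (-3.55, nearest -4.54), line 1004 the lowest Gzma level (-6.63, nearest -5.98) and line 1039 the highest Wdr43 level (0.16, nearest -0.20). For Fn1 no lymphoma array was well above background.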

How the results depend on the processing

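The count of genes between lines and stimulated cells ran from 7220 to 9841 over 27 alternatives, within 1.5 times of 8465 in each; leaving out 1 line gave 7988 to 8301 and leaving out 1 stimulated sample 7551 to 7897. With slide as a block the counts were 8265, and 7021, 5283 and 5635 against 3, 6 and 24 h; with the repeat number as a replicate block they were 8120, 6892, 5069 and 5428, and the block moved no count by over 1.5 times, although Irs2 lost its call against 24 h (adjusted p = 0.0797). Within slides, 6 h gave 3490 and 2992 genes, with fewer lines in each fit, 3 h 5760 and 24 h 4503. For distances, median centring turned 6 h minus 24 h to 0.016. The median absolute difference gave -0.022 there, and 1 minus Pearson r gave 0.028, -0.009 and -0.037 for 3 h minus 6 h, 3 h minus 24 h and 6 h minus 24 h. With the 4 lines on the slide of the 3 h array, an alternative chosen after seeing the data, the 3 values were 0.129, 0.068 and -0.061; with the 4 lines on the slide of the 24 h array, likewise added, 0.125, 0.076 and -0.048. Each of those 6 had p = 0.125, the smallest that 4 lines can give in the exact permutation test. Without markers of other cells the values were 0.120, 0.065 and -0.055. The plan to use lines sharing a slide with both the 3 h and 24 h arrays was not run, since these lie on different slides. Of 96 gene results, 87 kept direction and call under every alternative counted. The fits within slides, which hold fewer lines, were not part of that count. Some of the 87 lost their call there, as given above for Ddit4 and Cyren. Egr1, which passed no test, ran from -0.51 to 0.48 on leaving out 1 sample. The causes of these shifts were not tested. Probes dim on the lymphoma arrays limit the depth of the lower calls.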
